A study of Mus musculus with 6 samples.

Results

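The genes described here are 7 regulators of epithelial character: the grainyhead-like genes Grhl1, Grhl2 and Grhl3, the zinc finger genes Ovol1 and Ovol2, and the splicing regulators Esrp1 and Esrp2. They were chosen by name, as probe sets annotated to exactly 1 of these symbols, and all 7 were found, on 12 of the 45037 probe sets that are not controls and among 18193 genes with such a probe set. Each gene was read from its brightest probe set, and the others served as a check. They were measured in the embryonic day 13 urethra and bladder neck (Theiler stage 21) of wild-type mice of the FVB/N strain, sex unknown, with no treatment that differs between the layers. The labels' texts place the cut through the bladder differently, at the ureters or above or below them, so how much bladder the samples hold is not settled. Trypsin and a needle parted the tissue into epithelium, hybridised as arrays 1, 2 and 5, and its mesenchyme, as arrays 1, 2 and 3. Samples were not pooled, but no label ties an array to an embryo of its own, and p-values therefore measure a spread between samples that may be technical. The RNA was amplified in 2 rounds and hybridised to an Affymetrix mouse whole-genome expression array.

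Grainyhead-like proteins bind DNA as dimers at the site AACCGGTT and are named after a Drosophila gene needed for the cuticle. In mouse epithelia they switch on genes of cell junctions and of the surface barrier, and Grhl3 is known for its part in the late differentiation of the bladder lining. Ovol proteins are zinc finger repressors that hold mesenchymal genes such as Zeb1 down in epithelial cells. Esrp proteins bind RNA and set epithelial splice forms, the best known being the form of the receptor Fgfr2 that answers to ligands made by mesenchyme.

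Promoter sequence was held for 3 of the 7 genes, Grhl1 (with 2 starts, the first shown), Grhl3 and Ovol2. It is shown because all 3 had a higher signal in epithelium than on mesenchyme 2 and 3. Each run is the 250 bases before the start in RefSeq (GRCm38.p6), 5′ to 3′ on the gene's strand, at chr12:24572037-24572286 (plus strand) for Grhl1, chr4:135573633-135573882 (minus strand) for Grhl3 and chr2:144331363-144331612 (minus strand) for Ovol2. Capitals mark matches on either strand to AACCGGTT, to its looser form AACNNGTT, to the E-box CACCTG that Zeb and Snail repressors bind, or to the Ovol site CCGTTA.
Grhl1: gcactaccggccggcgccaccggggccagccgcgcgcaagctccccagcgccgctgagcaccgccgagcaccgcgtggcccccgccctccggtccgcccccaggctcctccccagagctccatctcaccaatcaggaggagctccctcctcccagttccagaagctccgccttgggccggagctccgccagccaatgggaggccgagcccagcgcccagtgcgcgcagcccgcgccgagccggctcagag
Grhl3: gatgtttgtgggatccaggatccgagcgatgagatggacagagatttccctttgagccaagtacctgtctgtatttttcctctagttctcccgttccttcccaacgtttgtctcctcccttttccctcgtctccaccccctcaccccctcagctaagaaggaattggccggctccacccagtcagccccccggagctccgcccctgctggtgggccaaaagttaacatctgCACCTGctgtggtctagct
Ovol2: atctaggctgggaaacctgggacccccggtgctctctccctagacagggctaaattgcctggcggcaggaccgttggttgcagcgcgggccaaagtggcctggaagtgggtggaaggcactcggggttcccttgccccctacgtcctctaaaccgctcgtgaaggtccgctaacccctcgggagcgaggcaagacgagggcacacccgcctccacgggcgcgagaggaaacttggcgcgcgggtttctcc
The single match was a CACCTG 19 to 14 bases before the Grhl3 start, a motif present in 17.2% of 32851 windows of this length. The other motifs, in none of these windows, were found in 0.116% (AACCGGTT), 3.64% (AACNNGTT, which includes AACCGGTT) and 2.18% (CCGTTA) of all windows. The second Grhl1 start had no match either. The GC content of these windows was 75.6% for Grhl1, 56% for Grhl3 and 65.2% for Ovol2, with a median of 52.4% over all windows.

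Markers matched both labelled layers, but 1 array stood apart. All 10 epithelial markers, among them Epcam, Cdh1 and Krt8, were brighter on every epithelial array than on mesenchyme 2 and 3, and 8 of 10 mesenchymal markers, among them Col1a2 and Vim, were the reverse. On mesenchyme 1 the epithelial markers summed to 79726 normalized signal units, against 15723 on mesenchyme 2, 2831 on mesenchyme 3 and 199558 to 245630 on epithelial arrays. Of 10 markers of stratified epidermis, 8 were brightest of all 6 arrays on mesenchyme 1, where they summed to 192578, against 32243 to 78334 in epithelium, 8546 on mesenchyme 2 and 5172 on mesenchyme 3. The 6 markers of liver, heart, pancreas and lung summed to 234341 there and to 313 to 1053 elsewhere. The median deposited signal was lowest on epithelium 2 (126) and highest on mesenchyme 1 (254). The embryonic globin genes Hbb-y, Hba-x and Hbb-bh1 were lowest on mesenchyme 1 (Hbb-y at 2301, with 11189 to 56536 elsewhere). Twist1 read 467 there, and 3389 and 4294 on mesenchyme 2 and 3. Of 6 blood markers measured 3 were highest of all 6 arrays on mesenchyme 1, and of 10 mesenchymal markers 5. Over the genes tested its Pearson correlation with mesenchyme 2 and 3 was 0.784 and 0.755, beside 0.981 between those 2. The labels give this array the same tissue as the others, and what it holds was not tested. Member results below are given with and without it.

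**Figure D1:**
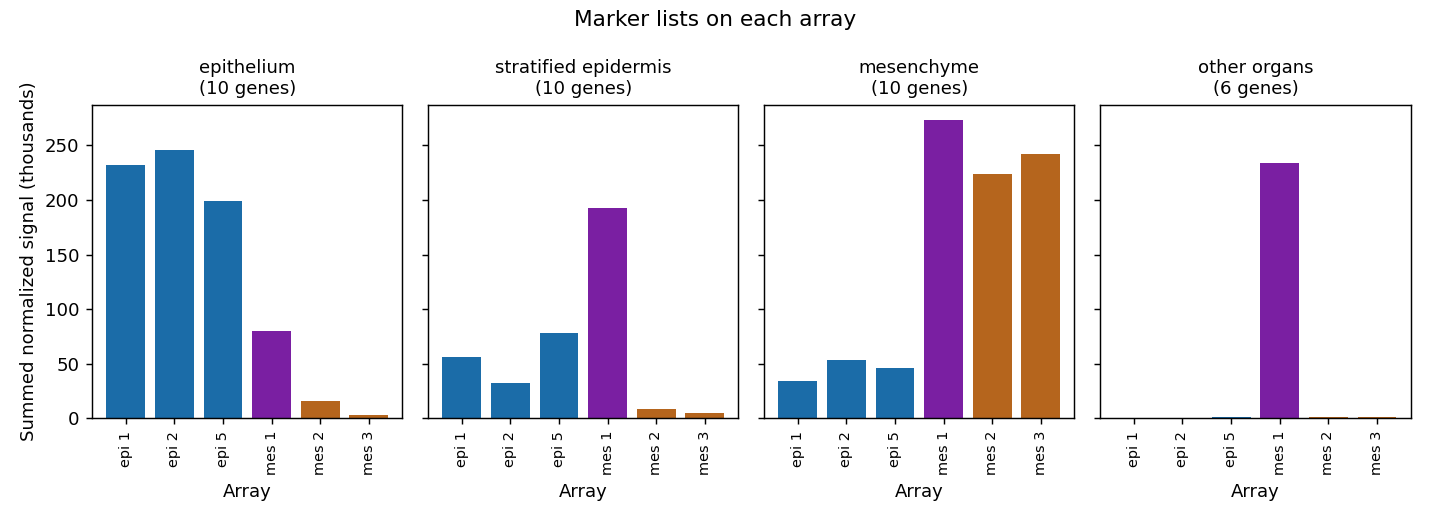
Summed normalized signal (linear axis from 0, labelled in units of 1000) of 4 marker lists on each array, 1 bar per array, with epithelium (epi) in blue, mesenchyme (mes) 2 and 3 in brown and mesenchyme 1 in purple. Mesenchyme 1 carries 192578 units of epidermal and 234341 units of other organ markers, above each other array in both lists.

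With all 6 arrays, 4 of the 7 genes were higher in epithelium: Grhl2, Grhl3, Ovol1 and Ovol2. Grhl1, Esrp1 and Esrp2 did not pass over 6 arrays, and without mesenchyme 1 all 7 passed. Their median log2 difference, epithelium minus mesenchyme, was 4.48 with all arrays, beside 0.12 over the 13717 genes tested, and 4.92 without mesenchyme 1, beside 0.02 over 13587 genes. Differences are on the log2 scale of quantile-normalized (signal + 16), tested in limma at an adjusted p of 0.05 (Benjamini-Hochberg, over every gene tested). Of all genes tested, 5.98% passed with 6 arrays and 14.5% without mesenchyme 1, of which those higher in epithelium were 1.95% and 6.37%. For 6 of the 7 genes, all but Grhl1, every epithelial array lay above every mesenchymal array, as did 15.5% of all genes, and for all 7 without mesenchyme 1 (23.1% of all genes). Ranked by excess in epithelium over 6 arrays, Esrp2 was 7th, Grhl2 9th, Grhl3 11th and Esrp1 21st of the genes tested. Ovol1 was 65th, Grhl1 236th and Ovol2 340th. Without mesenchyme 1, Esrp2 was 8th, Esrp1 14th, Grhl2 48th, Grhl3 55th, Grhl1 91st and Ovol1 100th of 13587 genes. Ovol2 ranked lowest of the 7 in both fits. All 7 passed the filter on low signal. In bulk samples, fewer cells of a type and less RNA per cell cannot be told apart.

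**Figure D2:**
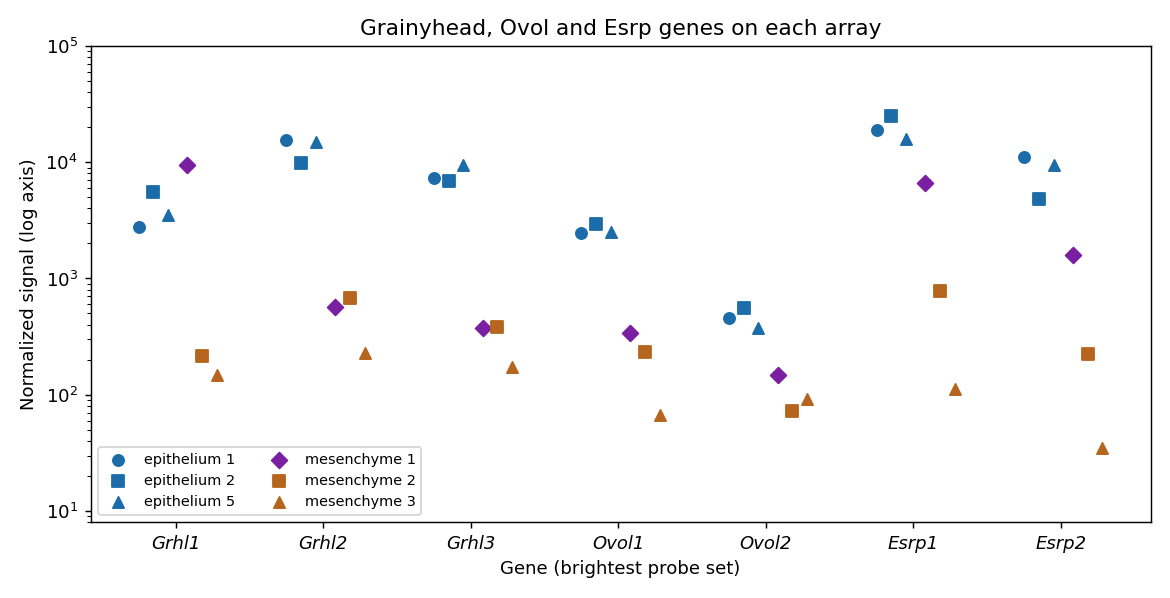
Normalized signal (log axis) of the brightest probe set of each gene, 1 point per array, with epithelial arrays in blue, mesenchyme 2 and 3 in brown and mesenchyme 1 in purple. Epithelial points lie above all mesenchymal points for 6 genes, while Grhl1 reads highest on mesenchyme 1. Heights are to be compared within a gene, not between genes.

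Grhl2, needed in mouse for neural tube closure and an activator of the cadherin gene Cdh1, read 15543, 9861 and 14865.5 normalized signal units on epithelium 1, 2 and 5 (probe set 1427046_at). On mesenchyme 1, 2 and 3 it read 565, 675 and 230.5. The epithelial arrays lay well apart from all 3 mesenchymal ones, and mesenchyme 1 lay between the other mesenchymal arrays. The difference was 4.83 ± 0.452 SE on the log2 scale (28.5-fold, 95% interval 3.77 to 5.89, limma adjusted p = 0.0039, n = 3 arrays per layer). Without mesenchyme 1 it was 5.08 ± 0.466 (adjusted p = 0.00118). Leaving out any other array kept the call, with adjusted p of at most 0.0317.

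The other 3 Grhl2 probe sets gave smaller differences, from a fit of all probe sets without a filter. Probe set 1431878_at read 1062, 330.5 and 1221 in epithelium and 15.5, 34.4 and 20.3 in mesenchyme, a difference of 4.32 ± 0.620 (adjusted p = 0.0177). Probe set 1431877_a_at, of a kind that can match several transcripts, gave 1.43 ± 0.424 (adjusted p = 0.165), with 481 to 754 units in epithelium and 194 to 305 in mesenchyme. The dim 1452643_at lay under the filter, and its layers overlapped (0.45 ± 0.652, adjusted p = 0.79). Without mesenchyme 1, 1431878_at passed in limma (4.22, adjusted p = 0.0129), but 1431877_a_at (1.36, adjusted p = 0.115) and 1452643_at (0.80, adjusted p = 0.634) did not. With the mean of the Grhl2 probe sets the difference was 2.76 and was past the threshold.

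Grhl3, a factor of the skin barrier whose promoter carries the E-box above, read 7364, 6842 and 9377 in epithelium and 378, 385 and 174 on mesenchyme 1, 2 and 3. The epithelial arrays spanned 0.45 log2 units, and mesenchyme 1 was within the range of the other mesenchymal arrays. The difference was 4.65 ± 0.389 (25.1-fold, interval 3.74 to 5.56, adjusted p = 0.00358), and 4.92 ± 0.370 without mesenchyme 1 (adjusted p = 0.00072). No single array left out ended the call (adjusted p of at most 0.03).

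Grhl1, known in mouse epidermis as an activator of the desmosomal gene Dsg1a, read 2751, 5547 and 3539 in epithelium and 9372, 213 and 146 on mesenchyme 1, 2 and 3. Mesenchyme 1 was the highest of the 6 arrays, 1.31 log2 units above the epithelial mean and 5.60 above the mean of mesenchyme 2 and 3. Over all arrays the layers overlapped, and the difference of 2.43 ± 1.43 (interval -0.93 to 5.79) did not pass (adjusted p = 0.405). Without mesenchyme 1 it was 4.40 ± 0.367 (21.1-fold, interval 3.53 to 5.27, adjusted p = 0.00096, n = 3 and 2 arrays). Dsg1a itself read 3828 on mesenchyme 1, with 51.3 to 240.2 elsewhere. It is among the 10 epidermal markers, all of which were higher on mesenchyme 1 than on mesenchyme 2 and 3. So were all 10 epithelial markers and all 6 markers of other organs. Of the epidermal markers 8 were highest of the 6 arrays there, but Krt5 and Krt14 were not. The part of any of these tissues in the Grhl1 value was not tested.

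Ovol1, a zinc finger repressor of differentiating epithelia, read 2462, 2955 and 2534 in epithelium and 342, 233 and 67.3 on mesenchyme 1, 2 and 3. The epithelial arrays lay within 0.26 log2 units of each other, and mesenchyme 3 was the lowest. The difference was 3.77 ± 0.556 (13.6-fold, interval 2.46 to 5.07, adjusted p = 0.0118), and 4.30 ± 0.462 without mesenchyme 1 (adjusted p = 0.00175). The call ended without epithelium 1 (adjusted p = 0.0731), epithelium 2 (0.0539) or epithelium 5 (0.0652), with differences of 3.82, 3.60 and 3.84. Its other probe set, 1419052_at, read 2546, 1879 and 2884.5 in epithelium and 133, 78.6 and 40.7 in mesenchyme, a difference of 4.70 ± 0.478 (adjusted p = 0.00783). Without mesenchyme 1 it was 5.14 ± 0.379 (limma adjusted p = 0.00205).

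Ovol2, a relative of Ovol1 needed for mouse neural tube and vascular development, had a single probe set, with a low signal of 456, 552 and 373 in epithelium. On mesenchyme 1, 2 and 3 it read 146, 72.8 and 91.9. The layers did not overlap, and mesenchyme 1 was the highest of the mesenchymal arrays. The difference was 2.02 ± 0.428 (4.06-fold, interval 1.02 to 3.03, adjusted p = 0.0383), and 2.28 ± 0.368 without mesenchyme 1 (adjusted p = 0.00693). The added 16 units compress the difference of a signal this low. The call ended without epithelium 1 (adjusted p = 0.163), 2 (0.116) or 5 (0.0944) or mesenchyme 2 (0.163) or 3 (0.13), without normalization (0.0831) and without the filter (0.0609).

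Esrp1, an RNA-binding regulator of epithelial splicing, read 18757, 24817 and 15813 in epithelium and 6590.5, 773 and 112 on mesenchyme 1, 2 and 3. The layers did not overlap, but the mesenchymal arrays were spread over 5.69 log2 units, with mesenchyme 1 at 4.38 above the mean of the other 2. The difference was 4.48 ± 1.25 (22.3-fold, interval 1.54 to 7.41) and did not pass (adjusted p = 0.0926). Without mesenchyme 1 it was 6.02 ± 0.704 (64.7-fold, interval 4.35 to 7.68, adjusted p = 0.00218). With median centring in place of quantile normalization the 6-array difference passed, at 4.71 (adjusted p = 0.0445).

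Esrp2, the paralogue of Esrp1, read 11121, 4782 and 9413 in epithelium and 1588, 224 and 34.9 on mesenchyme 1, 2 and 3 (probe set 1433683_at). On the brightest probe sets epithelium 2 was the lowest epithelial array here and for Grhl2 and Grhl3, whereas for Grhl1, Ovol1, Ovol2 and Esrp1 it was the highest. On the other Ovol1 probe set, however, it was the lowest. Before normalization Ovol2 was highest on epithelium 1 (455, beside 439 on epithelium 2). The Esrp2 difference was 4.88 ± 1.14 (29.5-fold, interval 2.22 to 7.55, adjusted p = 0.0529), just short of the threshold, and 6.28 ± 0.673 (77.9-fold, interval 4.69 to 7.88, adjusted p = 0.00173) without mesenchyme 1. Its other probe set, 1419977_s_at, gave a smaller difference of 1.42 ± 0.383 (adjusted p = 0.128), with 1132, 677 and 999.5 units in epithelium and 281, 386 and 337 in mesenchyme. Without mesenchyme 1 it was 1.35 ± 0.347 and did not pass either (limma adjusted p = 0.0778). That probe set can match several transcripts. On it mesenchyme 1 was the lowest array, unlike on the brighter one.

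**Figure D3:**
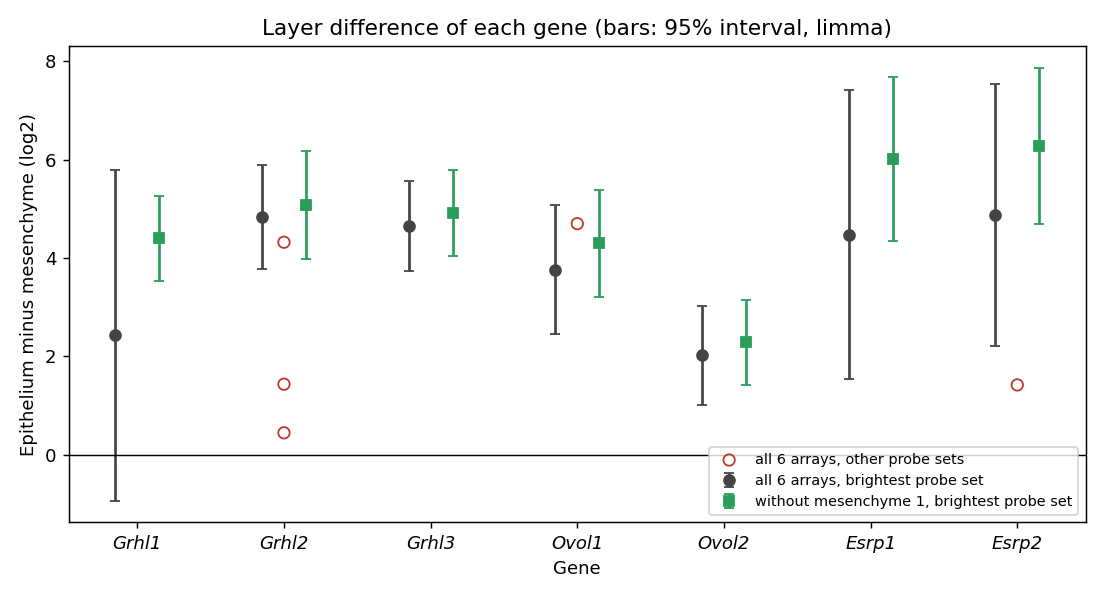
Log2 difference, epithelium minus mesenchyme, of each gene, with its 95% interval from limma, over all 6 arrays (grey circles) and without mesenchyme 1 (green squares), and the other probe sets of Grhl2, Ovol1 and Esrp2 over all 6 arrays (open red circles). The 6-array interval of Grhl1 reaches from -0.93 to 5.79, and that of Ovol2 from 1.02 to 3.03.

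The 3 genes that missed the threshold over 6 arrays were those with the largest excess on mesenchyme 1 over mesenchyme 2 and 3. An outlying array lowers the difference and widens its SE in the same fit, so the match is not a separate result. Relative to the mean of mesenchyme 2 and 3, mesenchyme 1 stood at 5.60 log2 units for Grhl1, 4.38 for Esrp1 and 3.86 for Esrp2, but at 0.49 for Grhl2, 0.51 for Grhl3, 1.31 for Ovol1 and 0.73 for Ovol2. On the other Esrp2 probe set, which also missed the threshold in limma (adjusted p = 0.128), it stood at -0.34. Krt5, Cdh1 and Foxa1, a pioneer factor of endodermal epithelia, were each lower on mesenchyme 1 than in epithelium and higher than in the remaining mesenchyme. Krt5 stood at 11949 there, beside 12443 to 26603 in epithelium, and Cdh1 at 8160, beside 10617 to 22186. Foxa1 stood at 3360, beside 34160 to 41095 in epithelium and 251 to 2429 in the remaining mesenchyme. Krt5 and Foxa1 were picked after their values were seen, and a split between kinds of lining was not tested.

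Mesenchyme 2 read above mesenchyme 3 for 6 of the 7 genes, all but Ovol2, by 0.50 log2 units for Grhl1, 1.49 for Grhl2, 1.08 for Grhl3, 1.58 for Ovol1, 2.63 for Esrp1 and 2.24 for Esrp2. For Ovol2 the difference was -0.28. The epithelial markers moved the same way, with Epcam at 2373 on mesenchyme 2 and 583 on mesenchyme 3, Trp63 at 2210 and 376, and Krt8 at 3654 and 664. Their part in these readings was not tested. Leaving mesenchyme 2 out as well as mesenchyme 1 put Esrp1 at 7.35 and Esrp2 at 7.40, and leaving mesenchyme 3 out instead put them at 4.73 and 5.16. All of these passed in limma, the lone mesenchymal array being assumed to vary like the epithelial ones. With 4 arrays, 5 choices of the second array left out gave the same calls for 6 genes, and Ovol2 missed the threshold without mesenchyme 2 (adjusted p = 0.0766) or mesenchyme 3 (0.0596).

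The genes whose profile over the 6 arrays was most like each member's were sought among 3068 tested genes with a log2 SD of at least 1. Pearson correlations are given as a description, since 2 layers and 1 outlying array shape every profile. Among the 7 genes themselves, Grhl2 and Grhl3 were the most alike (r = 0.997 over 6 arrays), and Grhl1 and Grhl2 the least (0.584). Esrp1 was nearest to Trp63, the p63 factor of stratified epithelia (r = 0.9998), which read 36409 to 50260 in epithelium and 15175, 2210 and 376 on mesenchyme 1, 2 and 3. The uncharacterised 2310030G06Rik came next (0.999). Esrp2 was nearest to Capg, which encodes an actin filament capping protein (0.998), and Liph, a lipase gene (0.997). Grhl1 was nearest to the homeodomain gene Hopx (0.997) and to Tmem51 (0.996), and both were also highest on mesenchyme 1, with Hopx at 9746 there and 3456 to 5277 in epithelium.

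Grhl2 was nearest to Rasd2, a small G-protein gene (0.998), and to the stress kinase gene Mapk13 (0.996). Grhl3 was nearest to the Wnt receptor Fzd6 (0.997), which read 28896 to 34775 in epithelium and 3578 to 6638 in mesenchyme, and again to Rasd2 (0.995). Ovol1 was nearest to Macc1 (0.999) and to Grb7, an adaptor of receptor tyrosine kinases (0.996). Ovol2 was nearest to Wfdc15b (0.996) and the laminin chain Lama5 (0.995). The mean profile of the 7 was nearest to Jade2 (0.998), Tom1l1 (0.997), the epidermal kinase Ripk4 (0.996), the laminin chain Lama3 (0.996) and Mreg (0.995). Hopx, Capg, Tom1l1 and Lama3 were read from _a_at and Rasd2, Lama5 and Ripk4 from _s_at probe sets, which can match several transcripts.

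Of 24 genes tested that are reported as targets or partners of grainyhead factors, 10 passed as higher in epithelium over 6 arrays, beside 1.95% of all genes, and 21 without mesenchyme 1, beside 6.37%. The count fell to 1 without epithelium 1, epithelium 5 or mesenchyme 2, to 2 without epithelium 2 or mesenchyme 3, to 5 without the filter and to 6 with no intensity trend in the variance model. In the same order, calls higher in epithelium over all genes fell from 267 to 27, 49 and 67, to 135 and 103, and to 222 and 240. None of the 24 passed as higher in mesenchyme in limma, at an unadjusted p under 0.05 either. Their median difference was 3.09, beside 0.12 over all genes (3.88 beside 0.02 without mesenchyme 1). Cdh1, Cldn4, Cldn7 and Epcam of this list also served as epithelial markers. The largest past the threshold were the tight junction genes Cldn3 (4.57), Marveld2 (3.69), Cldn6 (3.67) and Marveld3 (3.51), and Arhgef19 (2.81), known as a Grhl3 target.

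Arhgef19 read 992, 458 and 1053 in epithelium and 95.1, 167 and 56.7 in mesenchyme (adjusted p = 0.0255), with no overlap between the layers. Tgm1, a cross-linking enzyme of the skin barrier and a Grhl3 target in epidermis, read 1735, 985 and 1389 in epithelium and 462, 163 and 99.5 in mesenchyme. Its difference was 2.65 ± 0.571 (adjusted p = 0.0406). Cdh1, encoding E-cadherin, read 16750, 22186 and 10617 in epithelium and 8160, 770.4 and 30.1 on mesenchyme 1, 2 and 3, and its 4.57 ± 1.64 did not pass (adjusted p = 0.18) until mesenchyme 1 was left out (6.46 ± 1.07, adjusted p = 0.00766). Upk2, a uroplakin gene whose promoter Grhl3 binds in bladder, had a difference of -0.39 (adjusted p = 0.842), with 46.9 to 697 units in epithelium and 229 to 552 in mesenchyme. Upk3a, another uroplakin gene of the list, had 1.49 (limma adjusted p = 0.105), with no overlap between the layers. Without mesenchyme 1 the Upk3a difference passed, at 1.71 (limma adjusted p = 0.0303). Dsg1a had -0.83 (adjusted p = 0.784) over all arrays.

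Genes reported as repressed by Ovol or grainyhead factors included several that were higher in mesenchyme. Of 16 tested, 5 passed in that direction, beside 4.03% of all genes, and 8 without mesenchyme 1, beside 8.17%, with a median of -0.98 (-1.01 without mesenchyme 1), against the medians of all genes given above. The count was 3 without epithelium 1, epithelium 5, mesenchyme 2 or mesenchyme 3. Over all genes it fell from 553 to 115, 192, 125 and 227 in these fits. Zeb1, a repressor of epithelial genes, read 1135, 2077 and 2332 in epithelium and 13730.1, 16802 and 15512 in mesenchyme. The layers were far apart and mesenchyme 1 lay near the other mesenchymal arrays, with a difference of -3.10 ± 0.327 (8.59-fold, adjusted p = 0.00455). The others were Cdh2 (-4.02), which encodes N-cadherin, Zeb2 (-3.56), Cdh11 (-2.83), another mesenchymal cadherin gene, and Vim (-2.51), the intermediate filament gene of mesenchyme.

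Vim and Twist1 of this list also served as mesenchymal markers. Twist1, Twist2 and Tgfb2 passed as higher in mesenchyme without mesenchyme 1 (-2.94, -1.42 and -2.06). The Snail factor Snai2 read 11109, 17860.2 and 14899 in epithelium and 8406, 15731 and 17077 in mesenchyme, so the layers overlapped (0.13 ± 0.324, adjusted p = 0.854).

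Of 17 transcripts tested whose splicing Esrp proteins are known to set, 2 passed as higher in epithelium, beside 1.95% of all genes, and 1 as higher in mesenchyme, beside 4.03%. Their median was 0.29, beside 0.12 over all genes. Without mesenchyme 1 the counts were 3, beside 6.37%, and 2, beside 8.17%. With probe sets averaged per gene both counts were 0, where 237 and 375 of all 12820 genes passed in these directions. Fgfr2 read 22761, 20637 and 22057 in epithelium and 6983, 9741 and 9906 in mesenchyme (1.31 ± 0.204, adjusted p = 0.0139). Its probe set is of the _s_at kind, and the call ended with median centring (1.58, adjusted p = 0.0572), with its probe sets averaged (0.85, adjusted p = 0.239), and without epithelium 1 (adjusted p = 0.091), epithelium 5 (0.0695) or mesenchyme 2 (0.0575). Fgfr3, a related receptor, was higher in epithelium (3.20 ± 0.712, adjusted p = 0.0449), and Nfib, a transcription factor gene, in mesenchyme (-1.18 ± 0.203, adjusted p = 0.0192). Cd44, a hyaluronan receptor gene with Esrp-dependent exons, read 10216 on mesenchyme 1, with 255 to 922 elsewhere, a difference of -1.96 (adjusted p = 0.363). Without mesenchyme 1 another Cd44 probe set was the brightest, with a difference of 0.18 (adjusted p = 0.87). These values are transcript amounts, and splice forms were not analysed here.

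Other splicing regulators had 3 of 23 genes higher in mesenchyme (4.03% of all genes), 4 without mesenchyme 1 (8.17%), and a median of -0.01, beside 0.12 over all genes. With probe sets averaged per gene, or without epithelium 1, epithelium 5 or mesenchyme 2, the count was 0. Over all genes it was 375, 115, 192 and 125 there, beside 553 as processed here. None of the 23 passed as higher in epithelium in limma, with 1 at an unadjusted p under 0.05 (2 without mesenchyme 1). Rbm24, a regulator of muscle splicing, differed by -2.65 ± 0.412 (adjusted p = 0.0139), and Rbfox1 (-2.54, adjusted p = 0.0191) and Rbfox3 (-1.96, adjusted p = 0.0401) are known from neurons, Rbfox1 also from muscle. All 7 muscle markers, and 3 of the 4 measured markers of neurons and glia, were brighter on mesenchyme 2 and 3 than on every epithelial array. Their part in these differences was not tested. Rbm47, another epithelial splicing regulator, read 254, 234 and 388 in epithelium and 361, 149 and 45.2 in mesenchyme (0.95, adjusted p = 0.5).

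The more distant relatives of the grainyhead family, which share its DNA-binding fold, numbered 3, too few to read a count against the 5.98% of all genes past the threshold over 6 arrays. In limma 0 passed (also 0 at an unadjusted p under 0.05), and 1 passed without mesenchyme 1, where 14.5% of all genes did. Tfcp2l1 read 382 to 405 in epithelium and 1047, 82.8 and 35.8 on mesenchyme 1, 2 and 3. Like Grhl1, it was highest on mesenchyme 1, and its difference of 1.22 ± 1.04 (adjusted p = 0.569) became 2.53 ± 0.429 (adjusted p = 0.00849) without that array. The brighter Tfcp2 and Ubp1 had differences of 0.39 and 0.19 (adjusted p = 0.642 and 0.562).

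Of the 83 related genes tested, 21 were past the threshold over 6 arrays, beside 5.98% of all genes, and all 21 were still past it without mesenchyme 1. Leaving out epithelium 1, 2 or 5 kept 4, 10 or 4 of them, and leaving out mesenchyme 2 or 3 kept 4 or 7. Over all genes the number past it went from 820 to 1975 without mesenchyme 1. It was 142, 551 and 241 without epithelium 1, 2 and 5, and 192 and 330 without mesenchyme 2 and 3. Cldn6, Zeb1, Vim and Cdh2 were past it in each of these 6 fits. On mesenchyme 1 the grainyhead targets stood a median of 2.35 log2 units above mesenchyme 2 and 3, and the genes reported as repressed a median of -0.74.

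**Figure D4:**
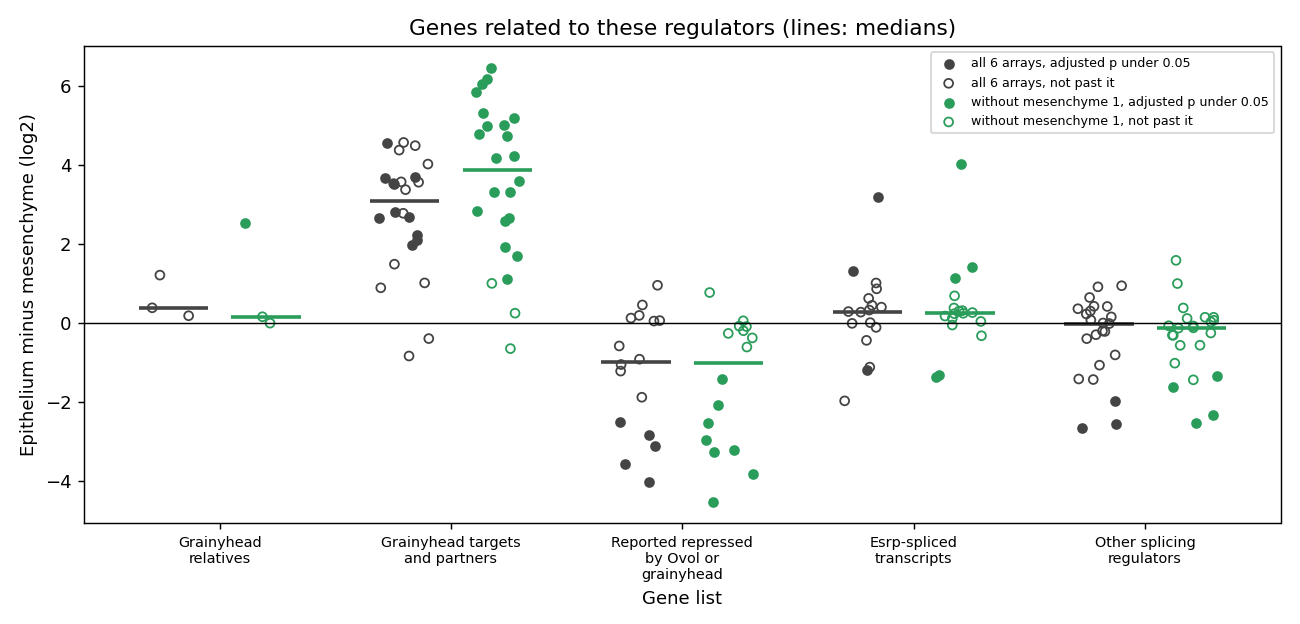
Log2 difference, epithelium minus mesenchyme, of each tested gene in the 5 related lists, over all 6 arrays (grey) and without mesenchyme 1 (green), filled where limma's adjusted p was under 0.05, with lines at list medians. Over 6 arrays 22 of 24 grainyhead targets lie above 0 (median 3.09), as do 6 of 16 genes reported as repressed (median -0.98).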

How the data were processed

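The authors deposited linear probe set intensities (signal) for 6 arrays. They were made with GCOS, per the submitters' processing notes; its version and settings were not given in the sources used here. On every array the mean was 1500 once the outer 2% of probe sets at each end were set aside, so the deposited intensities share a scaling. There are no detection calls, so dim probe sets have no bound. There were 3 arrays per layer, and their number limits the precision.

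The 64 controls were left out. By the platform annotation 34945 probe sets name 1 gene, 932 several and 9160 none. Promoters were matched by symbol to the RefSeq table. The array table names no build. Values were taken as log2(signal + 16) and quantile normalized, and printed signals are these values set back to the linear scale. Probe sets above the 40th percentile of mean log2 were kept, the brightest stood for its gene (chosen again when an array was left out), and limma 3.58.1 (R 4.3.3; lmFit and eBayes with trend) compared the layers without covariates and with Benjamini-Hochberg adjustment. The code was tested on simulated data.

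Members and lists were chosen with earlier results of these data known. Named are the 7 members, up to 5 genes of each list and direction past the threshold (the 2 brightest where none passed), the 2 genes nearest in profile to each member and the 5 nearest to their mean, and Cdh1, Zeb1, Zeb2, Fgfr2, Cd44 and Tfcp2l1. Other list genes and markers were named after their values were seen. Alternatives were other offsets, normalizations, filters, probe set rules and variance models, array weights, the replicate number as a block, each array left out and, added after seeing the data, mesenchyme 1 left out with each other array. Whether equal numbers mean 1 embryo is not in the labels, so the numbers were not taken as pairs. Deviations of same-numbered arrays correlated at -0.05 and -0.02. With only 2 shared numbers and mesenchyme 1 outlying, these values cannot decide whether the arrays were paired.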

Additional observations from a re-analysis of the deposited data

How the results depend on the processing

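All 7 genes had a positive difference under each alternative run, and under the 12 processing alternatives Grhl2 ranged from 2.76 to 5.89, Grhl3 from 4.16 to 5.23 and Esrp1 from 3.24 to 6.91. Ovol2 had no value with the filter at the 60th percentile, which it did not pass. Weighting arrays by quality, an estimate that stopped early, put 5109 genes past the threshold, with all 7 members and 55 related genes. With the replicate block, which leaves 1 residual degree of freedom, limma called 0 genes, 0 members and 0 related genes, with 1460 genes and 6 of the 7 members at an unadjusted p under 0.05. Averaging probe sets per gene gave 11 related genes. Leaving out arrays, mesenchyme 1 alone or with another included, moved the genes past the threshold from 820 to between 142 and 3878, the members from 4 to between 2 and 7, and the related genes from 21 to between 4 and 45. The share of calls higher in epithelium, 32.6% as processed here, was 26.4% without normalization and 50.9% with array weights. It ranged from 19% (without epithelium 1) to 43.8% (without mesenchyme 1) with 1 array left out, and reached 59% without mesenchyme 1 and 2. Median centring moved the median of all genes from 0.12 to 0.23, and the differences do not subtract it. Esrp2 passed over 6 arrays with an offset of 64 (adjusted p = 0.0401), without normalization (0.0427), with median centring (0.0204), the stricter filter (0.0456), averaged probe sets (0.0336) or unique-type probe sets alone (0.0486). Leaving out arrays, Cd44 ranged from -2.68 to 0.49, turning from -1.96 to 0.18 without mesenchyme 1 (another probe set being the brightest there) and to 0.49, 0.23 and 0.14 when epithelium 2, mesenchyme 2 or mesenchyme 3 was also left out. The cause of the other changes was not tested.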
